A study of Mus musculus with 27 samples.

Results

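Livers of chow-fed HGFAC-KO mice were compared with livers of chow-fed littermate controls by RNA-Seq, 13 mice of the 27 in the series, 6 HGFAC-KO and 7 control. All were male C57BL/6J mice whose liver was taken after 4 weeks on the diet. The series gives their age as 8 weeks without saying whether this was at the start of the diet. HGFAC-KO mice carry a whole-body deletion made with CRISPR/Cas9, from within exon 1 of *Hgfac* through exon 2, and controls were littermates labelled Control without this deletion. No Cre or transgene is involved, the deletion is in every tissue, and the labels do not say whether the line came from 1 founder. The remaining 14 mice of the series, of both genotypes, ate the study's diet rich in fat and sucrose (HF/HS). The table holds read counts for 23191 gene symbols, of which 13571 had enough counts on chow to be tested. A level is given below in CPM (reads of a gene scaled to a common library size) as a range or as mean ± SD, a difference between genotypes on the log2 scale with its standard error (SE), and groups of 6 or 7 mice by their lowest, median and highest value. Levels of different genes are not compared, since CPM is not corrected for length.

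HGFAC is a serine protease made mainly by hepatocytes and secreted into plasma as a precursor. Once active it cleaves hepatocyte growth factor (HGF), and also the related macrophage-stimulating protein (MSP, gene *Mst1*), from single-chain into 2-chain forms that can signal through the receptors MET and RON. Hepsin and matriptase, among other proteases, can cut HGF too. MET acts through the adaptor GAB1 and the RAS-MAPK and PI3K pathways, and in liver it is known for hepatocyte growth, survival and metabolism.

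*Hgfac* itself was examined first, as a check of the labels (ENSMUSG00000029102, GRCm38 chr5:35041509-35048461, plus strand). Its transcript Hgfac-201 has 14 exons and 2135 bases, of which exons 1 and 2 make up 377 bases (17.66%) and exons 3 to 14 the remaining 1758 bases (82.34%). A count per gene therefore adds up reads from exons on both sides of the deletion. The exons at its right-hand edge are shown because one is lost and the next is kept. Both are coding, and capitals mark the sites of the study's qPCR primers, the forward one in the deleted exon 2 and the reverse one, as its complement, in the kept exon 3, for a product of 160 bases.
Exon 2 (chr5:35042290-35042464): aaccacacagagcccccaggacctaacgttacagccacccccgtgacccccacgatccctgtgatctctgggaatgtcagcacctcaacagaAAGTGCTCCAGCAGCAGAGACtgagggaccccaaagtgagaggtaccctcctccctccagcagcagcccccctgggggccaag
Exon 3 (chr5:35042566-35042662): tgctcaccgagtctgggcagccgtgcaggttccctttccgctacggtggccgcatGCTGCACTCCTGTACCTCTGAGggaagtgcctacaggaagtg

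*Hgfac* ran from 183 to 220.2 CPM (median 200.8) among controls, against 65.5 to 84.9 CPM (median 76.9) among HGFAC-KO livers. The groups were far apart, and the mean fell from 202 to 75.7 CPM, which left 37.5% of the control level. The log2 difference was -1.41 (SE 0.071, adjusted p = 3.05e-08 by the quasi-likelihood test of edgeR, adjusted after Benjamini and Hochberg), and an exact two-sided permutation test gave p = 0.000583, the smallest that 6 mice against 7 allow. By design the deletion takes exon 2 out of the genome, so the level that remained would come from the kept parts of the gene. A count over the whole gene does not show how these reads are spread over the kept exons.

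Library depth was 44300847 to 55534863 counts among controls, against 41028710 to 50221266 among HGFAC-KO livers (exact two-sided permutation test, p = 0.101). The 10 genes with the most counts took 16.3% to 17.6% of the named counts among controls, against 17.3% to 19.5% among HGFAC-KO livers (exact two-sided permutation test, p = 0.00758), so slightly less was left for all other genes in the HGFAC-KO livers. One library stood apart. KO chow replicate 1 had the highest or lowest level of all 13 mice in 5496 of the 11832 genes with a mean of at least 1 CPM (46.45%), where the other mice ranged from 6.347% to 20.53%. Its median correlation with the other mice was 0.981, against 0.989 to 0.992 for the rest. Its label matches its *Hgfac* level, 83.6 CPM, so it stayed in, and values without it stand beside the lists that turned direction when it was left out. Liver identity was plain in every mouse: the summed level of 10 hepatocyte markers ran from 88894 to 105719 CPM among controls, against 100653 to 114713 CPM among HGFAC-KO livers.

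Across the transcriptome, *Hgfac* was the 1 gene of 13571 that passed the adjusted threshold of 0.05 (0.00737%). The next smallest adjusted p-values were 0.336 for *Apoa1* and 0.674 for *Npnt*, and all remaining genes had 0.801 or more. At an unadjusted p under 0.05 there were 352 lower genes (2.59%) and 460 higher genes (3.39%), 812 together (5.98%). Over all 13571 genes 6624 were lower and 6947 higher, with a median log2 difference of 0.0031. These shares are the background against which every gene group below is read. By the stricter description that no HGFAC-KO mouse overlaps any control, 4 genes lay below (0.0295%) and 14 above (0.103%). Without KO chow replicate 1 these counts were 16 and 29. The typical difference was small, with a median absolute log2 difference of 0.0746 and a median SE of 0.0901. Only 27 genes differed by more than 2-fold in the fit, and 16 of these had a mean under 1 CPM. DESeq2 called 13 genes on the same counts, and limma voom called *Hgfac* alone. Those of DESeq2 were *Hgfac*, *Apoa1*, *Rrbp1*, *Aox1*, *Cyp4a12a*, *Cyp4a12b*, *Ehhadh*, *Serpina1e*, *Apom*, *Foxa3*, *Paics*, *Alb* and *Pglyrp2*, all described here.

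**Figure D1:**
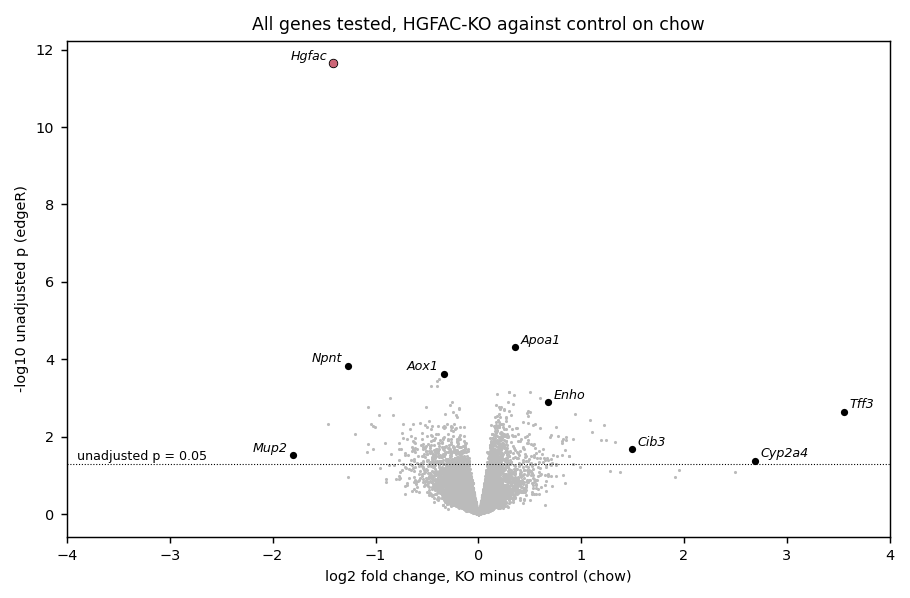
Each point is 1 of 13571 genes, with the log2 difference between HGFAC-KO and control mice on chow on the x axis and −log10 of the unadjusted edgeR p on the y axis; the dotted line marks the unadjusted threshold. *Hgfac*, in red, stands alone at a log2 difference of -1.41, and the labelled genes below it did not pass the adjusted threshold.

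The lower genes with the smallest p-values included enzymes of fatty acid and aldehyde oxidation and a matrix protein. *Npnt*, which encodes the matrix protein nephronectin, ran from 0.666 to 1.57 CPM (median 0.972) among controls, against 0.251 to 0.743 CPM (median 0.430) among HGFAC-KO livers, and 5 of the 6 HGFAC-KO mice lay below the lowest control. Its log2 difference was -1.27 (SE 0.25), and -1.47 without KO chow replicate 1. The gene is sparse at this depth.

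The male-biased omega-hydroxylases *Cyp4a12a* and *Cyp4a12b*, which oxidize the far end of fatty acids, were both lower. *Cyp4a12b* ran from 93.2 to 122.6 CPM (median 99.3) among controls, against 65.7 to 92.1 CPM (median 80.1) among HGFAC-KO livers, without overlap. *Cyp4a12a* ran from 215 to 286 CPM (median 258) among controls, against 172 to 236 CPM (median 191) among HGFAC-KO livers. Their log2 differences were -0.40 and -0.39. These neighbors on chromosome 4 are near-identical in sequence, so reads may have been split between them and their 2 values are not independent. *Ehhadh*, the bifunctional enzyme of peroxisomal beta-oxidation, ran from 1825 to 2536 CPM (median 2294) among controls, against 1339 to 1955 CPM (median 1690.3) among HGFAC-KO livers, lower by a log2 difference of -0.40 (SE 0.092). *Hadha*, a subunit of the mitochondrial trifunctional protein, also had no overlap and lay below the controls, at 567 to 595 CPM among controls, against 478 to 564 CPM among HGFAC-KO livers, the lowest being replicate 1. It is named here after its values were seen.

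*Aox1*, a molybdenum-containing aldehyde oxidase of drug metabolism, ran from 133 to 175 CPM (median 167) among controls, against 111 to 141 CPM (median 134) among HGFAC-KO livers. Its log2 difference was -0.34 (SE 0.071), and control replicate 5, at 133 CPM, was the only control within the HGFAC-KO range. *Txnip*, a thioredoxin-binding protein induced by glucose, averaged 46.2 ± 4.33 CPM across 7 controls and 38.5 ± 2.85 CPM across 6 HGFAC-KO livers. *Slc16a9*, a carnitine and monocarboxylate transporter, averaged 2.31 ± 0.328 CPM across 7 controls and 1.63 ± 0.249 CPM across 6 HGFAC-KO livers. In both, 5 of 6 HGFAC-KO mice were below every control. *Rdh16*, a retinol dehydrogenase, averaged 90.8 ± 9.35 CPM across 7 controls and 76.3 ± 4.83 CPM across 6 HGFAC-KO livers, and here 3 HGFAC-KO mice were below every control. Smaller differences with little spread were seen for the ubiquitin ligase *Trim37*, at 19.6 ± 1.02 against 17.2 ± 0.820 CPM, and for *Add3*, a subunit of the membrane skeleton protein adducin, at 11.8 ± 0.918 against 9.75 ± 0.888 CPM. None of these genes passed the adjusted threshold by edgeR (adjusted p = 0.801 for each), while DESeq2 called *Aox1* (adjusted p = 0.00418).

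The higher genes with the smallest p-values included abundant products of hepatocytes. *Apoa1*, the main protein of HDL, ran from 8244 to 9535 CPM (median 9189) among controls, against 10288 to 13549 CPM (median 11407) among HGFAC-KO livers (ENSMUSG00000032083, chr9:46228580-46230466), and every HGFAC-KO mouse lay above every control. Its log2 difference was 0.36 (SE 0.065, adjusted p = 0.336 by edgeR), and 0.31 without KO chow replicate 1, which had the highest level, 13549 CPM. By DESeq2 its adjusted p was 8.17e-06. *Serpina1e*, one of the mouse alpha-1-antitrypsin genes, ran from 3839.8 to 5917 CPM (median 4807) among controls, against 6208 to 9426 CPM (median 6780.4) among HGFAC-KO livers, again without overlap. It belongs to a family of near-identical copies, so its level is uncertain, and KO chow replicate 1 stood out at 9426 CPM.

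*Apom*, an HDL apolipoprotein that carries sphingosine-1-phosphate, ran from 184 to 240.4 CPM (median 208) among controls, against 223 to 297 CPM (median 261) among HGFAC-KO livers. *Rrbp1*, a ribosome-binding protein of the rough endoplasmic reticulum, had one of the tightest separations, from 614 to 680.2 CPM (median 656) among controls, against 712 to 770.3 CPM (median 742) among HGFAC-KO livers. *Pglyrp2*, a secreted amidase that cleaves bacterial peptidoglycan, ran from 138 to 160.1 CPM (median 149) among controls, against 145 to 225 CPM (median 180.3) among HGFAC-KO livers. *Enho*, which encodes the secreted peptide adropin, ran from 11.02 to 17.7 CPM (median 16.7) among controls, against 14.98 to 36.4 CPM (median 26.2) among HGFAC-KO livers, and 5 of 6 HGFAC-KO mice were above the highest control. The *Enho* log2 difference of 0.67 came to 0.54 without KO chow replicate 1.

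*Urad*, an enzyme of uric acid breakdown, averaged 32.4 ± 2.68 CPM across 7 controls and 39.7 ± 3.99 CPM across 6 HGFAC-KO livers. *Vnn3*, a pantetheinase family member, averaged 65.5 ± 5.83 CPM across 7 controls and 76.2 ± 3.20 CPM across 6 HGFAC-KO livers. *Grk3*, a kinase that desensitizes G protein-coupled receptors, averaged 8.67 ± 1.22 CPM across 7 controls and 13.2 ± 3.74 CPM across 6 HGFAC-KO livers, with 3 HGFAC-KO mice above every control. The transcription factor genes *Foxa3*, at 81.6 ± 9.05 against 103 ± 10.9 CPM, and *Esrra*, at 72.6 ± 5.83 against 83.9 ± 4.41 CPM, were higher in HGFAC-KO mice as well. So were *Blcap* (41.0 ± 2.00 against 46.3 ± 2.12 CPM), *Zfp446* (6.78 ± 0.308 against 8.05 ± 0.654 CPM) and *Ap4s1* (8.65 ± 0.334 against 9.93 ± 0.344 CPM), the last a subunit of an adaptor complex for vesicle sorting and without overlap. Each of these genes except *Apoa1* had an adjusted p of 0.801 by edgeR.

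**Figure D2:**
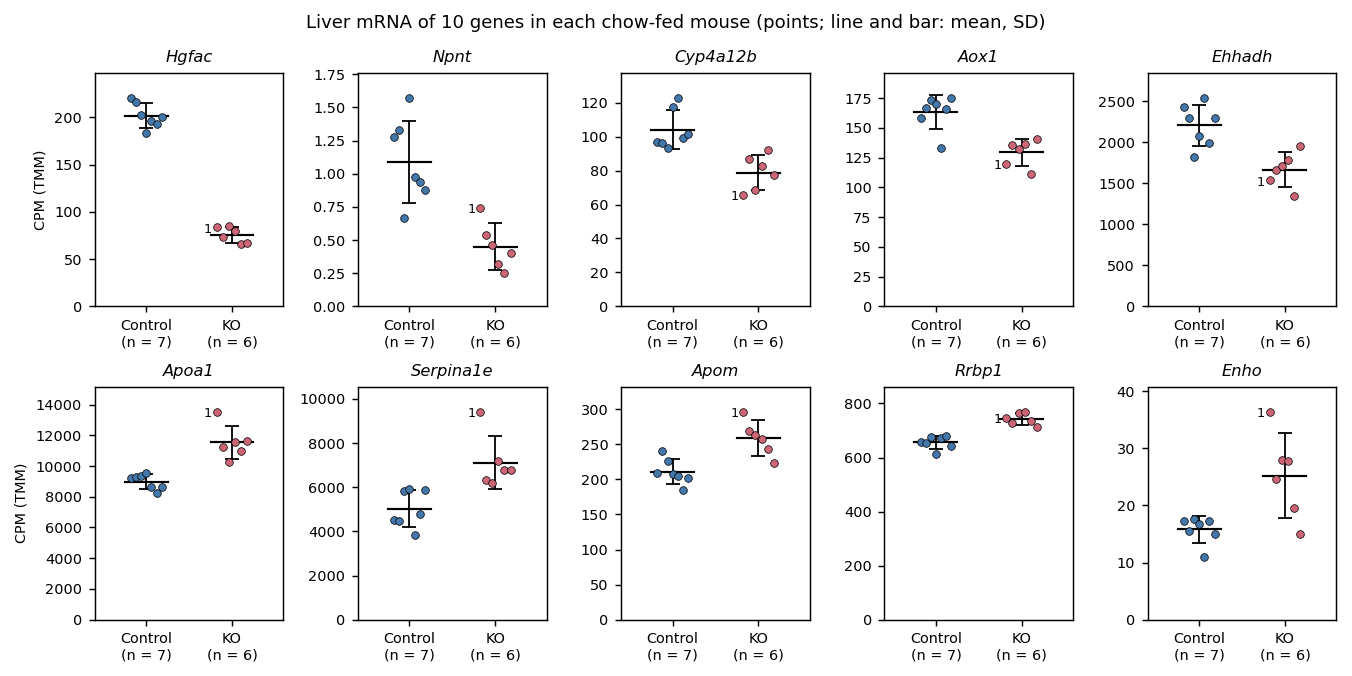
Level in CPM (y axis, a separate scale for each gene) of 10 genes in each control and HGFAC-KO mouse on chow; points are mice, lines are means, bars are 1 SD, and the digit 1 marks KO chow replicate 1. The groups are apart for *Hgfac*, *Cyp4a12b*, *Apoa1*, *Serpina1e* and *Rrbp1*, and overlap for *Npnt*, *Aox1*, *Ehhadh*, *Apom* and *Enho*.

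Some of the largest fold differences among genes of at least 1 CPM rested on few mice. *Tff3*, a secreted trefoil peptide of mucous and biliary epithelium, ran from 0.295 to 2.58 CPM (median 0.751) among controls, against 1.67 to 60.3 CPM (median 3.09) among HGFAC-KO livers, and KO chow replicate 1 alone held the 60.3 CPM. Its log2 difference was 3.55 with this mouse and 1.91 without it. *Cyp2a4*, a female-biased steroid hydroxylase, was at 31.3 CPM in the same mouse and under 3 CPM in all others, and its log2 difference went from 2.69 to -0.73 when that mouse was left out.

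*Cib3*, a calcium-binding protein gene, ran from 2.69 to 14.2 CPM (median 7.37) among controls, against 2.56 to 47.0 CPM (median 15.6) among HGFAC-KO livers. *Nipal1*, which encodes a magnesium transporter, ran from 1.72 to 4.88 CPM (median 3.90) among controls, against 3.93 to 13.7 CPM (median 6.28) among HGFAC-KO livers. Both had 3 HGFAC-KO mice above every control, and wide spread in the HGFAC-KO group. On the lower side, *Mup2* ran from 3.67 to 69.9 CPM (median 22.3) among controls, against 1.49 to 17.7 CPM (median 6.46) among HGFAC-KO livers, within a family of near-identical urinary protein genes whose counts are uncertain. *Cyp26c1*, a retinoic acid hydroxylase, averaged 1.76 ± 0.959 CPM across 7 controls and 0.865 ± 0.330 CPM across 6 HGFAC-KO livers, but control replicate 5 alone was at 3.84 CPM. *Rassf2*, a RAS association domain gene, averaged 2.03 ± 0.711 CPM across 7 controls and 1.22 ± 0.343 CPM across 6 HGFAC-KO livers with 1 HGFAC-KO mouse below the controls.

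The genes that act with HGFAC in the HGF and MSP pathway were then examined. *Hgf*, the ligand, is made in liver by stellate and endothelial cells rather than hepatocytes. It ran from 3.62 to 6.86 CPM (median 6.21) among controls, against 2.65 to 6.62 CPM (median 3.65) among HGFAC-KO livers, and 3 of 6 HGFAC-KO mice lay below every control. Its log2 difference of -0.47 (SE 0.22) had an unadjusted p of 0.0453 by edgeR and 0.105 without KO chow replicate 1. *Met*, its receptor, ran from 59.0 to 88.5 CPM (median 68.8) among controls, against 46.7 to 75.8 CPM (median 69.0) among HGFAC-KO livers, and its log2 difference was -0.10 (SE 0.11), and -0.019 without KO chow replicate 1. A single HGFAC-KO mouse, replicate 1 at 46.7 CPM, was below the controls.

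*Mst1*, the hepatocyte gene for MSP, averaged 216 ± 13.7 CPM across 7 controls and 240.0 ± 20.1 CPM across 6 HGFAC-KO livers, and replicate 1 at 279.6 CPM was the 1 HGFAC-KO mouse above all controls. *Mst1r*, which encodes the MSP receptor RON, averaged 0.328 ± 0.0763 CPM across 7 controls and 0.428 ± 0.140 CPM across 6 HGFAC-KO livers, close to the limit of what is counted reliably. *Hpn*, the gene of hepsin, averaged 351 ± 11.1 CPM across 7 controls and 363 ± 19.97 CPM across 6 HGFAC-KO livers, a log2 difference of 0.046 (SE 0.046). *St14*, the gene of matriptase, averaged 0.856 ± 0.245 CPM across 7 controls and 0.978 ± 0.520 CPM across 6 HGFAC-KO livers. Neither of these HGF-activating proteases reached the unadjusted threshold.

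*Plg*, the plasma protease precursor plasminogen, which is also known to cut HGF and MSP in some settings, averaged 2278 ± 109.6 CPM across 7 controls and 2489 ± 156 CPM across 6 HGFAC-KO livers, with 4 HGFAC-KO mice above every control. *Gab1*, the docking protein of MET, averaged 13.3 ± 1.121 CPM across 7 controls and 11.8 ± 0.845 CPM across 6 HGFAC-KO livers, with 3 HGFAC-KO mice below every control. Their log2 differences were 0.13 and -0.18. Of 19 pathway members tested, 6 were lower and 13 higher, with 2 and 2 at an unadjusted p under 0.05 by edgeR (1 and 2 without KO chow replicate 1), and a median log2 difference of 0.075 against 0.0031 over all genes. None passed the adjusted threshold.

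**Figure D3:**
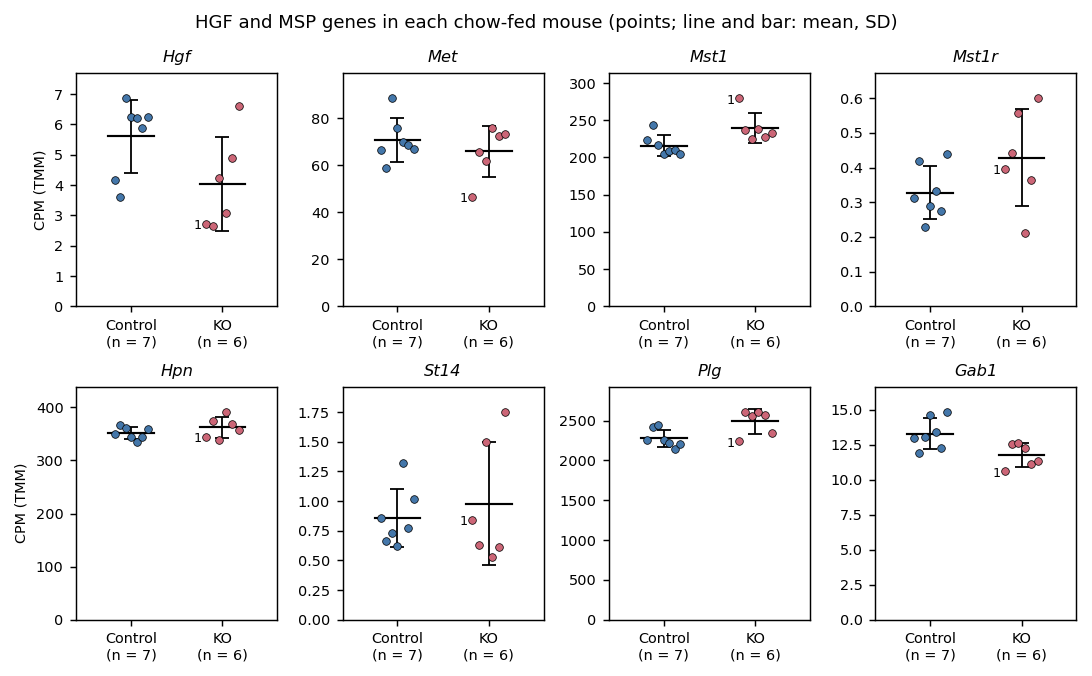
Level in CPM (y axis, a separate scale for each gene) of 8 genes of the HGF and MSP pathway in each control and HGFAC-KO mouse on chow; points are mice, lines are means, bars are 1 SD, and the digit 1 marks KO chow replicate 1. The groups overlap for each of the 8 genes, with 3 HGFAC-KO mice under the lowest control for *Hgf* and 4 over the highest control for *Plg*.

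Feedback inhibitors and immediate early genes are transcribed in response to MAPK signaling downstream of receptors such as MET. *Spred2*, an inhibitor of RAS-MAPK signaling, averaged 9.36 ± 0.637 CPM across 7 controls and 7.65 ± 1.53 CPM across 6 HGFAC-KO livers, and *Spry4*, a Sprouty inhibitor, averaged 5.41 ± 1.17 CPM across 7 controls and 3.97 ± 1.18 CPM across 6 HGFAC-KO livers. *Dusp6*, the phosphatase that inactivates ERK, averaged 44.8 ± 7.59 CPM across 7 controls and 36.1 ± 9.46 CPM across 6 HGFAC-KO livers. For each of the 3, KO chow replicate 1 had the lowest level of the HGFAC-KO mice, and their log2 differences went from -0.29 to -0.20, from -0.44 to -0.36 and from -0.31 to -0.23 without it. *Ccnd1*, the cyclin that growth signals induce, was on the other side, at 38.9 ± 3.46 CPM across 7 controls and 45.7 ± 7.48 CPM across 6 HGFAC-KO livers. As a list, 11 of 25 members were lower and 14 higher, with 2 and 1 at an unadjusted p under 0.05 by edgeR (1 and 0 without KO chow replicate 1). Its median of 0.067 became -0.053 without KO chow replicate 1, with 17 lower and 8 higher, and 0.12 without KO chow replicate 5.

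Next came the genes of fat and glucose metabolism that were chosen for qPCR. *Pparg*, the nuclear receptor of fat storage, ran from 5.62 to 7.37 CPM (median 6.36) among controls, against 3.67 to 5.68 CPM (median 4.44) among HGFAC-KO livers, and 5 of 6 HGFAC-KO mice lay below the lowest control. *Cd36*, a fatty acid transporter, ran from 28.1 to 46.3 CPM (median 40.6) among controls, against 14.7 to 40.4 CPM (median 30.0) among HGFAC-KO livers. *Scd1*, the desaturase that makes monounsaturated fatty acids, ran from 1739.7 to 4311 CPM (median 3151) among controls, against 1465 to 3388 CPM (median 2135) among HGFAC-KO livers. All 3 had lower means in HGFAC-KO mice, with log2 differences of -0.46 (SE 0.11), -0.52 (SE 0.20) and -0.50 (SE 0.21), and for each the adjusted p was 0.801 by edgeR. For *Pparg* the adjusted p was 0.0333 by DESeq2 without independent filtering, and with that filtering it was not among the genes called.

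*Fabp4*, a fatty acid-binding protein typical of adipocytes and macrophages, averaged 5.34 ± 1.04 CPM across 7 controls and 5.88 ± 2.92 CPM across 6 HGFAC-KO livers. Its log2 difference of 0.14 was -0.18 without KO chow replicate 1, the mouse at 11.6 CPM. *Me1*, malic enzyme, which supplies NADPH for fat synthesis, averaged 147 ± 22.9 CPM across 7 controls and 124 ± 10.2 CPM across 6 HGFAC-KO livers.

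*Ppara*, the receptor that drives fatty acid oxidation genes, averaged 245 ± 30.8 CPM across 7 controls and 218 ± 41.7 CPM across 6 HGFAC-KO livers. The carnitine palmitoyltransferase gene *Cpt2* averaged 224 ± 16.2 CPM across 7 controls and 208 ± 18.4 CPM across 6 HGFAC-KO livers. *Pdk4*, a kinase that shuts off pyruvate oxidation in fasting, averaged 11.6 ± 3.03 CPM across 7 controls and 13.03 ± 3.78 CPM across 6 HGFAC-KO livers. *Pck1*, which catalyzes the committed step of gluconeogenesis, ran from 769 to 2173 CPM (median 1044) among controls, against 294 to 1661 CPM (median 480.3) among HGFAC-KO livers, with 4 HGFAC-KO mice below every control and the other 2 within the control range. For these 4 genes the log2 differences were -0.16, -0.10, 0.17 and -0.77, with SEs of 0.12, 0.064, 0.20 and 0.47, and none passed even the unadjusted threshold.

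Among lipid lists, PPARA targets and fatty acid oxidation genes were lower in 46 of 55, with 10 lower and 1 higher at an unadjusted p under 0.05 by edgeR and a median log2 difference of -0.084. These were 6 and 1, with a median of -0.052, without KO chow replicate 1. Lipogenic genes and targets of the sugar-sensing factor ChREBP were lower in 17 of 29 and higher in 12, with 4 lower and 0 higher at an unadjusted p under 0.05 by edgeR (5 and 0 without that mouse). Their median of -0.045 came to 0.0040 without KO chow replicate 1 and to -0.11 without KO chow replicate 3. Cholesterol synthesis genes, which the factor SREBP2 turns on when sterol is short, were higher in 19 of 26, with none at an unadjusted p under 0.05. Their mean level varied widely within both genotypes, from -0.38 to 0.46 among controls, against -0.67 to 0.73 among HGFAC-KO livers on the log2 scale relative to the control mean, and the list median went from -0.10 to 0.22 as single mice were left out.

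Bile acid genes were lower in 15 of 26 with a median of -0.023. *Abcb11*, the pump that exports bile salts into bile, averaged 433 ± 36.3 CPM across 7 controls and 379.8 ± 55.5 CPM across 6 HGFAC-KO livers, lowest in KO chow replicate 1 at 296 CPM. *Slco1a4*, an uptake transporter for bile acids and drugs, averaged 83.4 ± 15.2 CPM across 7 controls and 107 ± 23.8 CPM across 6 HGFAC-KO livers. The median of the bile acid list was 0.025 without KO chow replicate 1, so its sign rested on this mouse, and -0.065 without KO chow replicate 2.

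Apolipoprotein and lipoprotein genes were higher in 20 of 34, with 3 higher and 0 lower at an unadjusted p under 0.05 by edgeR and a median of 0.045 (0.083 without KO chow replicate 6). *Apoa1* and *Apom* were the pair described above. *Alb*, the gene of albumin and the most abundant plasma protein, ran from 55723 to 66909 CPM (median 58916) among controls, against 64391 to 74090.1 CPM (median 69470.1) among HGFAC-KO livers, with 5 of 6 HGFAC-KO mice above the highest control and a log2 difference of 0.20 (SE 0.061). Carriers and hepatokines were higher in 31 of 48, with 5 at an unadjusted p under 0.05 and none on the lower side.

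Protease inhibitors of the serpin family were higher in 21 of 31, with 4 higher and 1 lower at an unadjusted p under 0.05 by edgeR (6 and 3 without KO chow replicate 1). Besides *Serpina1e*, *Serpina11* averaged 62.2 ± 6.29 CPM across 7 controls and 73.6 ± 7.15 CPM across 6 HGFAC-KO livers and *Serpina3m* averaged 167 ± 31.1 CPM across 7 controls and 209.7 ± 21.0 CPM across 6 HGFAC-KO livers, and the latter belongs to a cluster of close copies. *Itih3*, a hyaluronan-binding plasma protein, averaged 1029 ± 81.0 CPM across 7 controls and 1136 ± 93.7 CPM across 6 HGFAC-KO livers, and KO chow replicate 4 was its highest mouse at 1323 CPM. Coagulation and fibrinolysis genes were higher in 27 of 34, with 4 at an unadjusted p under 0.05 against 1 lower (5 and 2 without KO chow replicate 1). Without KO chow replicate 4, the highest mouse for this list, 22 were higher and 12 lower.

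The acute-phase response, the set of plasma proteins that hepatocytes make under inflammation, set single mice apart rather than genotypes. *Saa1*, serum amyloid A, was at 1299 CPM in KO chow replicate 4 and at 247 CPM in control replicate 3, while the median was 37.0 CPM among controls, against 41.7 CPM among HGFAC-KO livers. *Saa2* behaved alike, at 777 and 106 CPM in the same mice. *Lcn2*, the iron-sequestering protein lipocalin 2, reached 112 and 18.6 CPM there.

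*Hpx*, the heme carrier hemopexin, ran from 3537 to 5301 CPM (median 3964) among controls, against 3756 to 6904 CPM (median 4643) among HGFAC-KO livers and was again highest of the controls in replicate 3. Over the list, 20 of 27 acute-phase genes were higher with a median of 0.10, and without KO chow replicate 4 18 were lower and 9 higher with a median of -0.061. Without control replicate 3 the median was 0.17. The direction of this list therefore rested on KO chow replicate 4.

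Amino acid breakdown and urea cycle genes were higher in 33 of 49, with 5 higher and 1 lower at an unadjusted p under 0.05 by edgeR and a median of 0.039 (0.074 without control replicate 4). Without KO chow replicate 1, 28 were higher and 21 lower. *Cdo1*, cysteine dioxygenase, which starts taurine and sulfate production, ran from 930.3 to 1165 CPM (median 1107) among controls, against 1192 to 1412 CPM (median 1234) among HGFAC-KO livers, with no overlap between the groups. *Got1*, cytosolic aspartate aminotransferase, averaged 142 ± 26.2 CPM across 7 controls and 198 ± 50.1 CPM across 6 HGFAC-KO livers. The ornithine aminotransferase gene *Oat*, which is expressed around the central vein, was on the lower side, at 935 ± 173 CPM across 7 controls and 737 ± 89.5 CPM across 6 HGFAC-KO livers.

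*Paics* and *Ppat*, which catalyze steps of de novo purine synthesis and overlap each other by their first bases on chromosome 5 (chr5:76951307-76967509 and chr5:76913249-76951578), were at 188 ± 10.3 against 165 ± 7.95 CPM and 29.6 ± 3.14 against 25.3 ± 2.102 CPM. For each gene, 5 HGFAC-KO mice lay below every control, and reads from the stretch they share could have gone to either gene. *Nt5e*, the surface enzyme that makes adenosine from AMP, averaged 10.8 ± 1.16 CPM across 7 controls and 8.79 ± 1.51 CPM across 6 HGFAC-KO livers, also with 5 mice below the controls. The whole list of purine and pyrimidine genes was even, 17 lower and 17 higher of 34 (14 and 20 without KO chow replicate 1), but 5 of its members were lower at an unadjusted p under 0.05 by edgeR and 1 higher, *Urad* of uric acid breakdown (5 and 2 without that mouse).

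Drug metabolism genes were divided. Cytochrome P450 genes of families 1 to 3 were lower in 28 of 45 and conjugation enzymes in 29 of 50, with medians of -0.034 and -0.063. Without KO chow replicate 6 these medians were 0.0093 and -0.025, and without KO chow replicate 2 the cytochrome P450 median was -0.088. *Ugt2b1*, a glucuronosyltransferase, averaged 530.1 ± 58.1 CPM across 7 controls and 441 ± 45.4 CPM across 6 HGFAC-KO livers, and *Gstm2*, a glutathione S-transferase, averaged 35.1 ± 5.29 CPM across 7 controls and 29.1 ± 2.83 CPM across 6 HGFAC-KO livers. *Sult1a1*, a phenol sulfotransferase, was higher, at 206 ± 34.97 CPM across 7 controls and 264 ± 44.1 CPM across 6 HGFAC-KO livers, and its highest mouse was KO chow replicate 1 at 348 CPM.

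Targets of NRF2, the factor that responds to oxidative stress, were lower in 18 of 22, with 4 lower and 0 higher at an unadjusted p under 0.05 by edgeR and a median of -0.095 (-0.061 without control replicate 2). *Gsr*, glutathione reductase, ran from 105 to 117 CPM (median 108) among controls, against 92.6 to 106 CPM (median 99.9) among HGFAC-KO livers, and 5 HGFAC-KO mice lay below the lowest control. *Txnrd1*, thioredoxin reductase, averaged 217 ± 17.8 CPM across 7 controls and 196 ± 12.9 CPM across 6 HGFAC-KO livers. In the list as a whole the HGFAC-KO mice ranged from -0.30 to 0.14 around the control mean on the log2 scale, with KO chow replicate 1 at the top. Without this mouse 20 of 22 were lower and the median was -0.14.

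Retinoid genes went both ways, 16 lower and 9 higher of 25, and 11 lower and 14 higher without KO chow replicate 1. *Lrat*, which stores retinol as esters in stellate cells, averaged 22.1 ± 5.79 CPM across 7 controls and 16.4 ± 3.42 CPM across 6 HGFAC-KO livers. The retinol dehydrogenase paralogs *Rdh16* and *Rdh16f2* lie near each other on chromosome 10 and differed in opposite directions, *Rdh16* as given above and *Rdh16f2* at 54.4 ± 12.1 CPM across 7 controls and 76.1 ± 13.3 CPM across 6 HGFAC-KO livers. *Rdh16f2* was highest in KO chow replicate 1, at 95.4 CPM. Since paralogs share reads, their split is uncertain.

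Growth hormone acts on liver through STAT5 and sets its sex-biased genes, to which *Cyp4a12a*, *Cyp4a12b* and *Serpina1e* belong. These went in different directions, and so did the list, 13 lower and 14 higher of 27 with 2 and 5 at an unadjusted p under 0.05 by edgeR (3 and 3 without KO chow replicate 1). *Cyp17a1*, a steroid hydroxylase, averaged 9.96 ± 2.55 CPM across 7 controls and 17.7 ± 8.21 CPM across 6 HGFAC-KO livers. Major urinary protein genes, which carry pheromones, were 12 lower and 10 higher of 22, and KO chow replicate 1 was the lowest mouse, at -1.43 on the log2 scale against a control range of -0.72 to 0.55. This split rested on single mice: 6 were lower and 16 higher without KO chow replicate 1 (median 0.16), and 17 lower and 5 higher without KO chow replicate 4 (median -0.15). *Mup20*, which encodes the male pheromone darcin, averaged 854 ± 170.4 CPM across 7 controls and 1116 ± 206 CPM across 6 HGFAC-KO livers, with 3 HGFAC-KO mice above every control.

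Insulin signaling genes were lower in 30 of 37, with a median of -0.056 (-0.020 without KO chow replicate 1, -0.086 without KO chow replicate 6) and no member at an unadjusted p under 0.05 in either direction. Glycolysis, gluconeogenesis and glycogen genes were 20 lower and 17 higher of 37, and 16 and 21 without KO chow replicate 1. The clock list was likewise mixed, 16 lower of 27. *Cry1*, a repressor of the clock, averaged 16.1 ± 2.29 CPM across 7 controls and 21.3 ± 6.20 CPM across 6 HGFAC-KO livers, with KO chow replicate 1 the highest mouse at 31.4 CPM. Its log2 difference was 0.41 with that mouse and 0.26 without it.

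*Mt1*, metallothionein 1, which binds zinc and is induced by metals and glucocorticoids, ran from 17.6 to 44.5 CPM (median 28.9) among controls, against 21.2 to 68.4 CPM (median 49.9) among HGFAC-KO livers. The hepatocyte factor *Foxa2* averaged 24.2 ± 2.21 CPM across 7 controls and 28.3 ± 2.85 CPM across 6 HGFAC-KO livers, and 3 of 31 hepatocyte transcription factors, *Foxa3*, *Esrra* and *Foxa2*, were higher at an unadjusted p under 0.05 by edgeR with none lower. The whole list was 16 lower and 15 higher, and 12 and 19 without KO chow replicate 1.

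Hepatocytes differ by their place between portal and central vein. Periportal genes were higher in 18 of 21 with a median of 0.072, and pericentral and Wnt target genes were lower in 19 of 25 with a median of -0.087. Without KO chow replicate 1 the medians were 0.054 and -0.018, with 14 periportal genes higher and 14 pericentral genes lower. The periportal median was 0.044 without control replicate 3 and 0.14 without control replicate 4. At an unadjusted p under 0.05 by edgeR there were 2 periportal genes higher and 0 lower (1 and 1 without KO chow replicate 1), and 1 pericentral gene lower, *Oat*.

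Ribosomal protein genes and nuclear genes of respiration were mostly higher, by small differences. All 84 cytosolic ribosomal protein genes tested were higher, at a median log2 difference of 0.15, and 26 of them (30.95%) had an unadjusted p under 0.05 by edgeR against 3.39% of all genes. KO chow replicate 1 was the highest mouse, at 0.47 relative to the control mean, and 3 HGFAC-KO mice lay above every control. Without it the median was 0.075, with 82 of 84 higher and 9 at an unadjusted p under 0.05.

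Mitochondrial ribosomal protein genes were higher in 71 of 80 with a median of 0.053, and nuclear genes of oxidative phosphorylation in 76 of 80 with a median of 0.080. Both medians were smaller without KO chow replicate 1, at 0.030 and 0.032. The 13 genes that mitochondrial DNA encodes for the same respiratory complexes were 7 lower and 6 higher, and 5 and 8 without KO chow replicate 1. Genes of 1 complex are commonly transcribed together, so the members of such a list are not independent of each other. Proteasome genes were lower in 31 of 47 with a median of -0.030, which came to -0.001 without control replicate 2. Folding genes of the endoplasmic reticulum were even, 23 lower and 22 higher.

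Genes that interferons induce were higher in 35 of 45, with 9 at an unadjusted p under 0.05 by edgeR and none lower, and a median of 0.10. Without KO chow replicate 1, 11 were higher and 1 lower at an unadjusted p under 0.05 and the median was 0.12. Without control replicate 5 the median was 0.066. *Ly6e*, a membrane protein that restricts viral entry, ran from 103 to 148 CPM (median 125) among controls, against 137 to 251 CPM (median 150.0) among HGFAC-KO livers. *Xaf1*, a pro-apoptotic interferon target, ran from 3.86 to 4.48 CPM (median 4.11) among controls, against 3.81 to 5.97 CPM (median 5.19) among HGFAC-KO livers, and 5 of 6 HGFAC-KO mice were above the highest control while replicate 1 was below the lowest. *Stat2*, which carries the interferon signal, was at 111 ± 4.52 against 121 ± 6.34 CPM, and *Ifit3*, an antiviral RNA-binding family member, at 5.73 ± 0.502 against 6.66 ± 0.685 CPM. The mean level of the list overlapped between groups, from -0.11 to 0.16 among controls, against -0.0064 to 0.15 among HGFAC-KO livers.

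Markers of the other liver cell types were lower in several lists. In whole tissue, fewer cells of a type and less RNA per cell cannot be told apart. Sinusoidal endothelial markers were lower in 24 of 26 with a median log2 difference of -0.21, and in all 26 with a median of -0.26 without KO chow replicate 1. Of these, 4 had an unadjusted p under 0.05 by edgeR, and 10 without KO chow replicate 1. The median was -0.14 without KO chow replicate 2. *Cdh5*, VE-cadherin of endothelial junctions, averaged 22.5 ± 4.01 CPM across 7 controls and 18.001 ± 3.36 CPM across 6 HGFAC-KO livers. *Tek*, the angiopoietin receptor TIE2, averaged 9.61 ± 1.68 CPM across 7 controls and 7.74 ± 1.58 CPM across 6 HGFAC-KO livers.

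The water channel gene *Aqp1* averaged 70.0 ± 7.79 CPM across 7 controls and 60.4 ± 7.52 CPM across 6 HGFAC-KO livers and *Ehd3*, a membrane trafficking gene of sinusoidal endothelium, averaged 54.1 ± 8.76 CPM across 7 controls and 46.0 ± 5.72 CPM across 6 HGFAC-KO livers. For the first 3 of these genes, 3 HGFAC-KO mice lay below every control, and for *Ehd3* 1 did. Summed over the list, the level ran from 542 to 804 CPM among controls (median 657), against 451 to 696 CPM among HGFAC-KO livers (median 578), with overlap. No marker of this list was at 0 in all mice.

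Kupffer cell and macrophage markers were lower in 17 of 19 with a median of -0.21 (-0.13 without control replicate 6), though only 1 had an unadjusted p under 0.05 by edgeR (0 without KO chow replicate 1). It was *Adgre1*, which encodes the macrophage antigen F4/80, and it ran from 6.84 to 19.3 CPM (median 10.7) among controls, against 5.67 to 9.53 CPM (median 8.16) among HGFAC-KO livers. *Marco*, a scavenger receptor, averaged 12.8 ± 12.5 CPM across 7 controls and 6.62 ± 2.43 CPM across 6 HGFAC-KO livers, and control replicate 6 alone was at 40.9 CPM. The summed level of the list was 346 to 601 CPM among controls, against 304 to 448 CPM among HGFAC-KO livers.

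Lymphocyte and neutrophil markers were lower in 15 of 19, with 3 at an unadjusted p under 0.05 by edgeR and a median of -0.12. The median was -0.24 without control replicate 5, -0.23 without KO chow replicate 1 and -0.028 without control replicate 1. *Lcp1*, the actin bundler of blood cells, averaged 106 ± 8.63 CPM across 7 controls and 91.6 ± 5.60 CPM across 6 HGFAC-KO livers, and *Il2rg*, the common cytokine receptor gamma chain, averaged 2.25 ± 0.423 CPM across 7 controls and 1.52 ± 0.392 CPM across 6 HGFAC-KO livers, each with 4 HGFAC-KO mice below every control. Summed levels were 115 to 154 CPM among controls, against 114 to 131 CPM among HGFAC-KO livers, and the neutrophil marker *Ly6g* had no count in any mouse. Stellate cell and fibroblast markers were lower in 17 of 23 with a median of -0.071, which came to -0.25 without KO chow replicate 1, the highest mouse for this list, and to 0.011 without KO chow replicate 4, the lowest. *Hhip*, a Hedgehog inhibitor, averaged 2.56 ± 0.374 CPM across 7 controls and 1.96 ± 0.392 CPM across 6 HGFAC-KO livers. The summed stellate level was 401 to 531 CPM among controls, against 291 to 594 CPM among HGFAC-KO livers, and no marker was at 0 throughout.

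Markers of cholangiocytes and progenitors stood on the other side, with 11 of 14 higher and a median of 0.086. The median was 0.018 without KO chow replicate 6, 0.23 without control replicate 5 and 0.15 without KO chow replicate 1. *Sox9*, their transcription factor, ran from 11.1 to 26.7 CPM (median 17.9) among controls, against 22.6 to 31.8 CPM (median 28.0) among HGFAC-KO livers, and 3 HGFAC-KO mice were above every control. The summed level of this list reached 358 CPM in KO chow replicate 6 against 179 to 263 CPM in controls. Erythroid markers were 3 lower and 2 higher of 5, and of the adipocyte and pancreas markers only 3 were expressed enough to be tested, with summed levels of 4.80 to 11.9 CPM among controls, against 5.90 to 11.9 CPM among HGFAC-KO livers and no count of *Lep*, *Amy2a5* or *Ins2* in any mouse.

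Cell cycle genes, which mark the rare dividing cells of an adult liver of any type, were lower beside these markers, in 48 of 57 with 14 lower and 1 higher at an unadjusted p under 0.05 by edgeR and a median of -0.21. *Aspm*, a spindle gene of dividing cells, averaged 0.425 ± 0.0915 CPM across 7 controls and 0.203 ± 0.1003 CPM across 6 HGFAC-KO livers. The mean of the list lay below every control in 4 HGFAC-KO mice, while replicates 1 and 4 were within the control range, the latter at 0.15 relative to the control mean. Whether dividing hepatocytes or dividing non-parenchymal cells carried the difference was not tested.

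**Figure D4:**
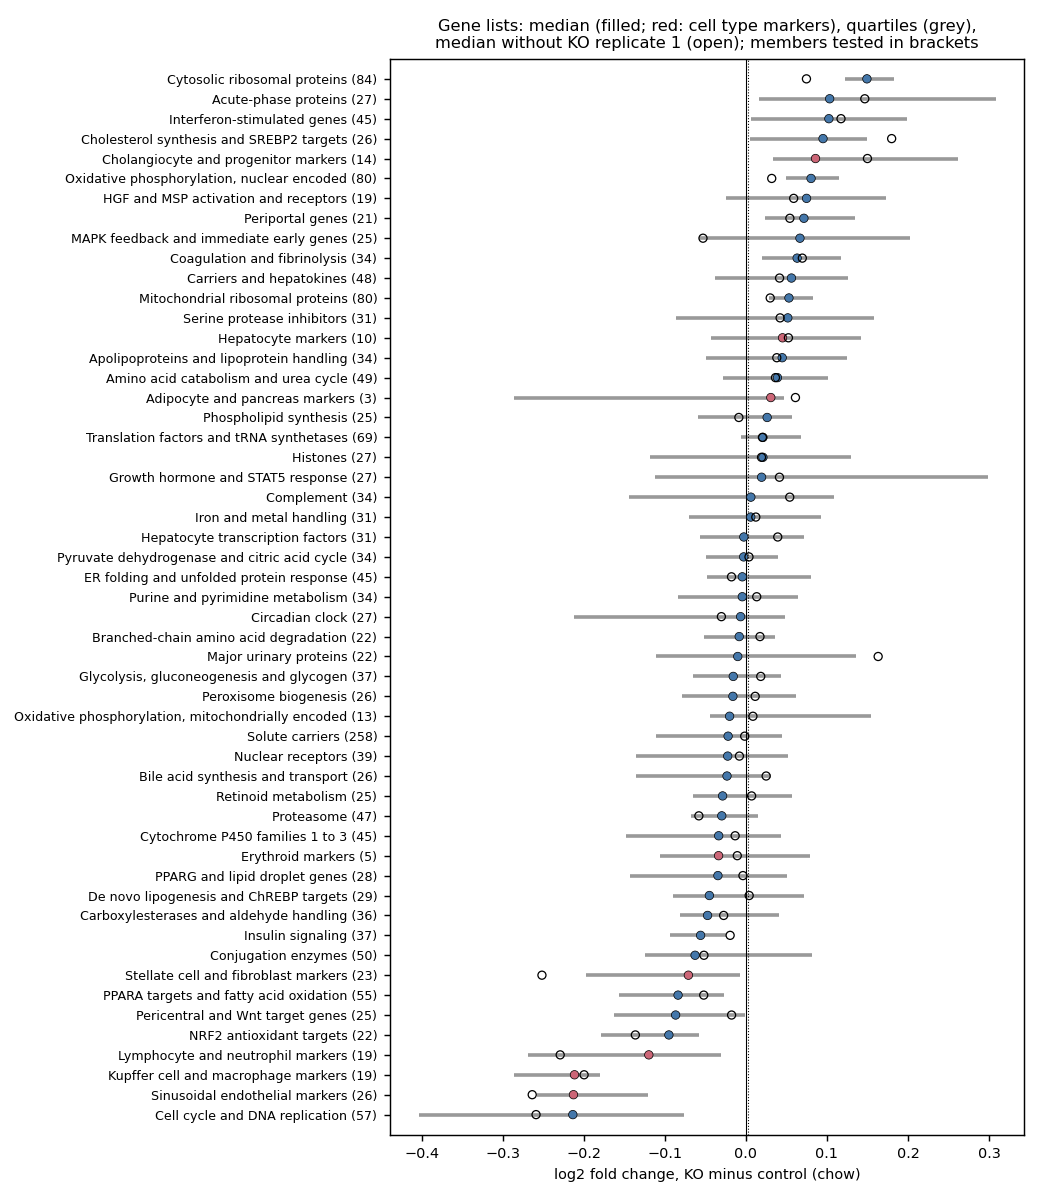
Median log2 difference between HGFAC-KO and control mice on chow (x axis) of 53 gene lists (rows, members tested in brackets); filled symbols are the medians, red for cell type markers, grey lines the quartiles, and open symbols the medians without KO chow replicate 1. Of the 53 medians 30 were below and 23 above 0, and 7 were beyond 0.1, the lowest being cell cycle genes, sinusoidal endothelial and Kupffer cell markers and the highest cytosolic ribosomal protein genes.

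**Figure D5:**
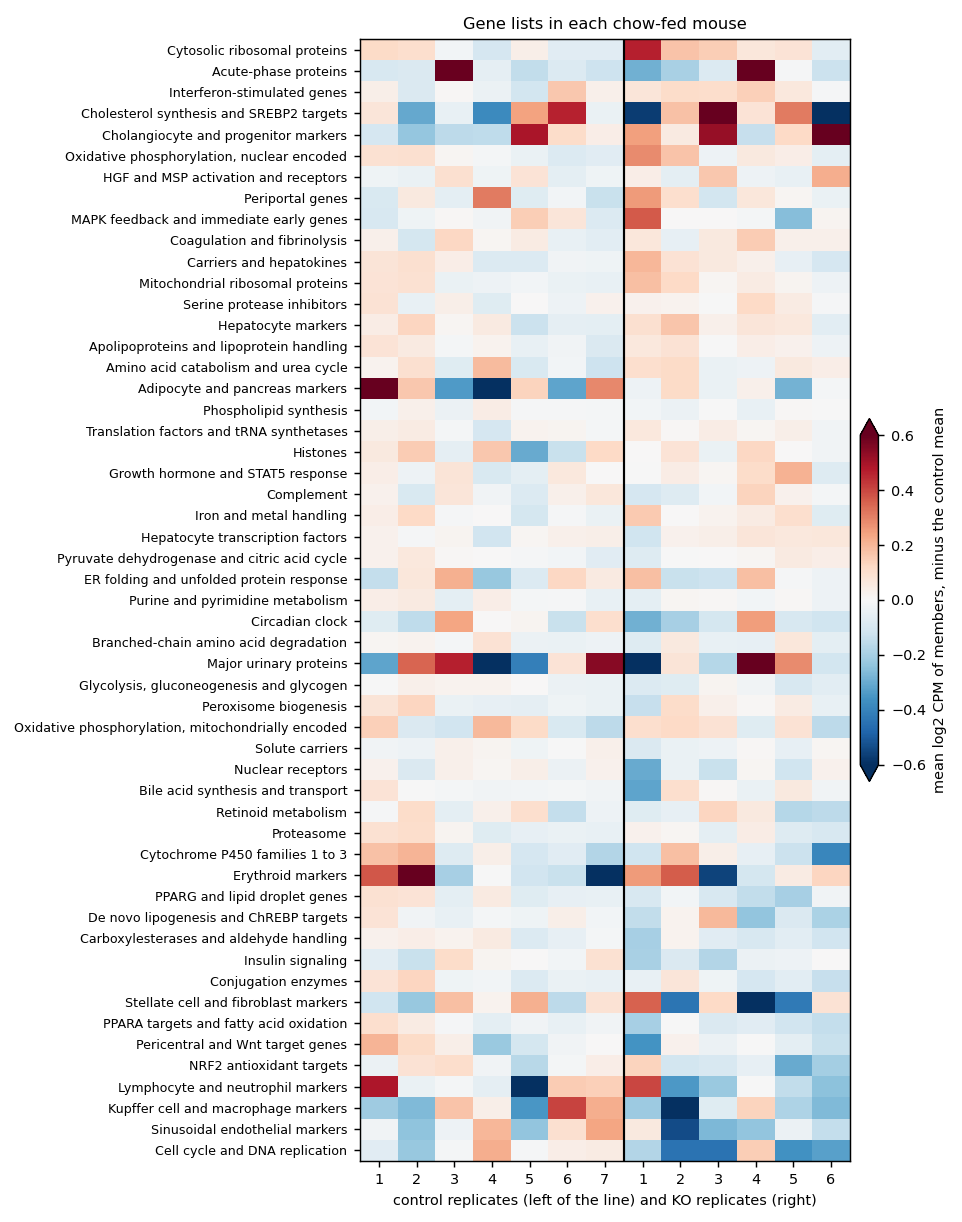
Mean log2 CPM of the members of each list (rows) in each of the 13 mice (columns), relative to the control mean; colors saturate at 0.6 in either direction. KO chow replicate 1 departs from the other mice in many lists, and KO chow replicate 4 and control replicate 3 in the acute-phase list.

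The same genotype comparison in other mice, those on HF/HS diet, was set beside these values. There 2 of 13544 genes passed the adjusted threshold and 1306 (9.64%) had an unadjusted p under 0.05 by edgeR. *Hgfac* was lower by the same measure, with a log2 difference of -1.56 (SE 0.061). Of the 348 genes lower on chow at an unadjusted p under 0.05 and tested on both diets, 254 (73.0%) were also lower on HF/HS, and of the 456 higher genes 357 (78.3%) were also higher, where 58.6% of all 13422 genes had the same sign on both diets. Of the genes without overlap on chow, 4 of 4 lower and 9 of 14 higher ones (64.3%) had the same sign.

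Several of the genes named above had the same direction and an unadjusted p under 0.05 by edgeR on HF/HS too. *Cyp4a12a* had a log2 difference of -0.53 there and *Cyp4a12b* of -0.58. *Oat* was at -0.51, *Rdh16* at -0.31 and *Gsr* at -0.13. On the higher side *Alb* was at 0.40, *Apom* at 0.17, *Enho* at 0.61, *Grk3* at 0.67, *Sox9* at 0.78, *Rdh16f2* at 0.41 and *Mup20* at 0.29.

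Others did not reach the unadjusted threshold on HF/HS or had the opposite sign there. *Apoa1*, the first of the higher genes on chow, had a log2 difference of -0.11 (SE 0.082), and *Npnt*, the first of the lower ones after *Hgfac*, had -0.33 (SE 0.29). *Ehhadh* was at -0.067 (SE 0.20), *Cdo1* at 0.0060 and *Slc16a9* at -0.027. *Saa1* and *Saa2* were at -2.02 and -2.73, again with SEs above 1. The difference between the diets, tested as an interaction over all 27 mice, passed the adjusted threshold by edgeR for 0 of 13932 genes, with 506 (3.63%) at an unadjusted p under 0.05, so no gene's genotype difference was shown to depend on diet.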

How the data were processed

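Liver RNA of 27 male mice in 4 groups was measured by RNA-Seq. The authors made stranded mRNA libraries, sequenced paired-end reads, aligned them to GRCm38 (mm10) with HISAT2, counted reads per gene with featureCounts 1.6.3 and deposited raw counts per gene in 1 table, without normalization. The annotation and the strand setting of the counting are not given in the sources used here, and reads shared by near-identical genes were assigned by that counting. Groups came from the genotype and diet labels, and each table column from the group, diet and number in its name, with 0 columns of values unused. Of 27179 rows 3886 name no gene; these held 4.84% to 12.1% of a chow library's counts and were dropped before library sizes were computed. Rows that shared a symbol (191 rows, 89 symbols) were added up. Depth on chow was 41028710 to 55534863 counts, so counting error is small for most liver genes and larger near 1 CPM. All chow libraries of a group differed by more than counting error (chi-square per gene at least 17.7).

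The 13 chow mice were fitted with edgeR 4.0.16 (R 4.3.3), with TMM normalization, filterByExpr (minimum count 10, minimum total 15), a robust quasi-likelihood fit and Benjamini-Hochberg adjustment over 13571 genes, threshold 0.05. The 14 HF/HS mice were fitted alike, and the interaction over all 27. CPM used TMM library sizes, and exact permutation tests were two-sided. The edgeR p-values set the genotype difference against the spread between these mice. A non-overlap count is of genes whose HGFAC-KO mice all lie on 1 side of all controls. The fit was tested on simulated counts.

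The 53 gene lists were written by hand. The comparison, its groups and the lists were chosen with earlier results of these data known, so their counts are descriptions and no list was tested as a set. Genes named were *Hgfac*; the 15 lower and 15 higher with the smallest unadjusted p; the 5 lower and 5 higher with the largest difference at an unadjusted p under 0.05 and a mean of at least 1 CPM; the study's qPCR genes; *Hgf*, *Met*, *Mst1*, *Mst1r*, *Hpn* and *St14*; and, per list, its first 2 members and up to 4 with the smallest p. Predicted genes were counted and not described, and some other genes that this rule names are not reported here. Alternatives were DESeq2 1.42.0, limma voom (limma 3.58.1), no filter, upper-quartile normalization, a minimum of 10 counts in each library, all 27 mice in 1 fit, the replicate number as a block, 1 surrogate variable (sva 3.50.0), and leaving out each mouse; DESeq2 without independent filtering and the non-overlap counts without KO chow replicate 1 were added after the data were seen. Positions, exons and exon sequences come from the GENCODE annotation and transcripts of GRCm38, and primer sequences from the study's supplement.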

Additional observations from a re-analysis of the deposited data

Results flagged for a closer look

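In 24 of 200 groups of 6 or 7 values examined, the highest or lowest mouse lay further from the others than Dixon's 95% limit allows, and chance alone flags about 1 in 20 groups. Of these, 6 were in KO chow replicate 1. It was the highest HGFAC-KO mouse for *Serpina1e* (9426 CPM, the other HGFAC-KO mice 6208 to 7163), *Tff3* (60.3 CPM, others 1.67 to 11.3), *Cyp2a4* (31.3 CPM, others 0.396 to 0.837), *Fabp4* (11.6 CPM, others 3.28 to 5.58), *Mst1* (279.6 CPM, others 225 to 238) and *Sult1a1* (348 CPM, others 226 to 271).

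A pair of mice stood out, mostly in acute-phase genes. KO chow replicate 4 was the highest of its group for *Saa1* (1299 CPM, others 20.2 to 48.7), *Saa2* (776.5 CPM, others 5.44 to 15.5), *Lcn2* (112 CPM, others 1.88 to 10.1) and *Itih3* (1323 CPM, others 1075 to 1133). Control replicate 3 was the highest control for *Saa1* (247 CPM, others 29.5 to 44.8), *Saa2* (106 CPM, others 8.49 to 14.1), *Lcn2* (18.6 CPM, others 3.00 to 4.65), *Hpx* (5301 CPM, others 3537 to 4145) and *Slco1a4* (113 CPM, others 66.2 to 86.4).

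Among the other controls, replicate 5 was lowest for *Aox1* (133 CPM, other controls 158 to 175) and *Enho* (11.02 CPM, others 14.9 to 17.6) and highest for *Cyp26c1* (3.84 CPM, others 1.09 to 1.78). Replicate 4 was lowest for *Foxa3* (63.8 CPM, others 79.6 to 90.8) and *Cdo1* (930.3 CPM, others 1085 to 1165). Replicate 2 was highest for *Cyp2a4* (2.85 CPM, others 0.199 to 1.10) and *Gsr* (117 CPM, others 105 to 108), and replicate 6 for *Marco* (40.9 CPM, others 5.70 to 10.4). The share of counts on rows without a gene name was 12.1% in KO chow replicate 6, against 4.84% to 7.15% in the other HGFAC-KO mice.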

How the results depend on the processing

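*Hgfac* passed under each of 9 alternatives and with any of the 13 mice left out. The number of genes past the threshold was 1 by edgeR, 13 by DESeq2, whose filtering left 1993 genes to adjust over, 10 by DESeq2 without that filtering (chosen after the data were seen), among them *Npnt*, *Pparg* and *Tff3*, and 2 with 1 surrogate variable, where *Npnt* joined *Hgfac*. It was 1 under the other alternatives. Lower genes at an unadjusted p under 0.05, 352 in all, ranged from 252 to 541 as single mice were left out, the highest without control replicate 2. Without KO chow replicate 1 the genes with no overlap numbered 16 below and 29 above, against 4 and 14. With the replicate number as a block *Hgfac* alone passed, at a log2 difference of -1.42, and 690 genes against 812 had an unadjusted p under 0.05. Same-numbered mice deviated from their group means with correlations of -0.153 to 0.389, and only number 2 correlated best with itself, so the numbers were not taken as pairs. Of 2087 values under alternatives of the 95 described genes besides *Hgfac* and *Hadha*, 2056 kept their direction and side of the adjusted threshold. Of the others, 22 in 15 genes came to pass it and 9 in 7 genes turned direction. With 1 surrogate variable the log2 difference was -0.58 for *Cyp2a4*, -0.12 for *Fabp4* and 0.0027 for *Met*. As single mice were left out it ranged from -0.73 to 3.32 for *Cyp2a4*, -0.18 to 0.26 for *Fabp4*, -0.058 to 0.33 for *St14*, -0.30 to 2.60 for *Lcn2*, -0.89 to 2.81 for *Saa1* and -1.13 to 3.65 for *Saa2*. Why these values moved was not tested. Depth limits genes near 1 CPM, where SEs were largest.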

Other observations

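Some gene groups not described above had little direction. Complement genes were 17 lower and 17 higher of 34 (13 and 21 without KO chow replicate 1). Of these, 1 was lower and 4 higher at an unadjusted p under 0.05 by edgeR, with or without that mouse, against 2.59% and 3.39% of all genes. The citric acid cycle was 17 and 17 of 34 (17 and 17 without that mouse, with a median that went from -0.0028 to 0.0037). Branched-chain amino acid degradation was 13 and 9 of 22 (9 and 13 without that mouse), phospholipid synthesis 11 and 14 of 25 (13 and 12) and peroxisome biogenesis 14 and 12 of 26 (12 and 14). Iron and metal genes were 15 and 16 of 31, and histones 11 and 16 of 27. Nuclear receptors were lower in 24 of 39 and solute carriers in 145 of 258 (20 and 133 without KO chow replicate 1). Translation factors and tRNA synthetases were higher in 46 of 69 with none at an unadjusted p under 0.05 by edgeR. Carboxylesterases and aldehyde enzymes were lower in 23 of 36, with 4 lower and 0 higher at an unadjusted p under 0.05, *Aox1* among the former. PPARG and lipid droplet genes were lower in 18 of 28 (15 without that mouse), with 3 and 0 at that level.

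On the first principal component of 500 genes, which held 24.0% of their variance, KO chow replicate 1 lay at 26.1 and the other 12 mice between -9.89 and 3.87. Its summed stellate markers were the highest of the 13 mice, and its list means were also the highest for cytosolic and mitochondrial ribosomal proteins and for nuclear genes of oxidative phosphorylation, and the lowest for major urinary proteins, nuclear receptors, insulin signaling and PPARA targets. The label of this mouse matches its *Hgfac* level, and the labels give no RNA quality value for it.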
